A study of Mus musculus with 11 samples.

Results

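Mir296 and Mir298 are neighbouring mouse miRNA hairpins on chromosome 2, close to the imprinted Gnas gene. Their listed mature products taken up here are mmu-miR-296-5p, mmu-miR-296-3p and mmu-miR-298-5p (below without the mouse prefix), 3 of the 1592 mature miRNAs and of the 2304 small RNAs in the count table. They were chosen by name and position, and for the deep fall of miR-296-5p in conditional knockout (cKO) sperm. Their values in cKO against wild-type (WT) sperm are therefore given as a description, with no test.

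Small RNA was sequenced in 11 libraries from adult C57BL/6 mice. Cauda epididymal sperm gave 2 libraries from Dicer cKO males, 3 from Drosha cKO males and 2 from WT males. Embryos at the 2PN stage (the fertilised egg with its pair of pronuclei), made by injecting sperm into the egg (ICSI), gave 1 library each for Dicer cKO, Drosha cKO and WT sperm. Oocytes of superovulated WT females gave 1 library. The deletions were germline and made with Cre and loxP, in lines backcrossed to C57BL/6, and the labels do not name the Cre driver. Nor do they say whether the libraries within a group are from different animals, and spreads and p-values measure the variation between these samples, which may be technical. Dicer and Drosha mRNA was not measured, so the deletions themselves were not checked.

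A miRNA gene is transcribed as a long primary RNA, from which Drosha cuts a hairpin in the nucleus. Dicer then removes the loop of the hairpin in the cytoplasm, and 1 strand of the remaining duplex, the 5p or the 3p arm, is usually retained by an Argonaute protein and directs it to mRNAs through its seed, bases 2 to 8. The Gnas locus makes several transcripts that are expressed from a single parental allele. miR-296 and miR-298 have been described as part of that imprinted cluster in mouse, with expression from the paternal allele. In mouse embryonic stem cells miR-296 was described, with miR-134 and miR-470, as targeting the coding sequence of Nanog, Pou5f1 or Sox2, which encode pluripotency factors. In mouse, miR-298 was described as a regulator of Bace1, which encodes a protease that cleaves the amyloid precursor protein.

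The mature sequences are shown because each read count belongs to a short, G- and C-rich RNA. They are given 5′ to 3′ with the seed in capitals, from RefSeq on GRCm38.p6, and all lie on the minus strand of chromosome 2.
miR-296-5p, chr2:174267093-174267113: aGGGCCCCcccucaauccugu
miR-296-3p, chr2:174267058-174267079: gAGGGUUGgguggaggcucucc
miR-298-5p, chr2:174267553-174267575: gGCAGAGGagggcuguucuuccc
The 3 RNAs have 3 different seeds, and no other listed miRNA with a RefSeq sequence (1333 of 1592 have one) carries any of them. A shorter match, over bases 2 to 7 of miR-296-5p, was found in miR-5621-3p, which had 1 read in all 11 libraries together. All 3 are rich in G and C, with 66.7% in miR-296-5p, 68.2% in miR-296-3p and 65.2% in miR-298-5p, against a median of 52.2% over the 1333 sequences. miR-296-5p holds a run of 7 C, which is matched in length by only 1 other of these sequences, that of miR-1249-3p. The longest stretch shared between miR-296-5p and miR-298-5p is 5 bases (AGGGC), and between the arms of Mir296 it is 4 bases (AGGG).

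The hairpins show which arm each RNA comes from, with the RefSeq mature arms in capitals. The second arm of Mir298, miR-298-3p, is also listed and had 1 read in all, in the oocyte library.
Mir296, chr2:174267047-174267125: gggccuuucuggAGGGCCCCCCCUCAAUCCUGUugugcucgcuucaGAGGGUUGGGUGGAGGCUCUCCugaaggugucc
Mir298, chr2:174267504-174267585: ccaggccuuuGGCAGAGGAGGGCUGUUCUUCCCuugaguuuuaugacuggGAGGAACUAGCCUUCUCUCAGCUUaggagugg
Only 378 bases separate the hairpins, and RefSeq places no further miRNA hairpin within 100 kb. Neither hairpin lies inside another RefSeq gene. The nearest gene, the antisense RNA Gnasas1, has its nearer end 13.7 kb away. Gnas itself, which encodes the stimulatory G protein alpha subunit, starts 16.7 kb away on the plus strand.

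**Figure D1:**
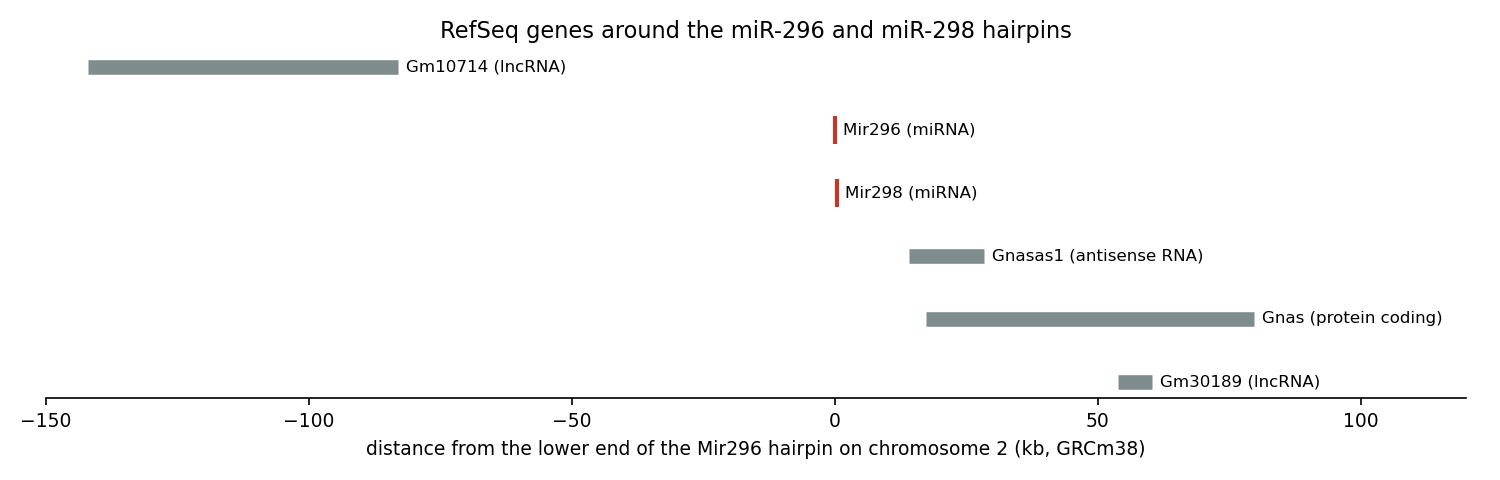
RefSeq genes around the 2 hairpins, with the distance from the lower end of the Mir296 hairpin in kb on the x axis (GRCm38, chromosome 2). The hairpins (red) lie 378 bases apart and appear as adjacent marks, and the nearer ends of Gnasas1 and Gnas lie 13.7 kb and 16.7 kb beyond the pair.

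The nearest listed hairpins outside the pair were far away and hardly read. Mir6340, 566 kb below the pair, had 3 reads, all in Dicer cKO replicate 2. Mir7005, 5910 kb above it, had 1 and 7 reads of its 5p arm in Dicer cKO and Drosha cKO sperm replicate 1, 3 in WT sperm replicate 2 and 1 in 2PN embryos from Dicer cKO sperm. Its 3p arm had 1 read in Drosha cKO sperm replicate 1 and 2 in oocyte. No listed neighbour therefore had enough reads to be set beside the pair.

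Levels are given as reads, as CPM (reads scaled to the listed small RNA reads of that library) and as RPM (the authors' deposited values, scaled to a larger total per library). Listed reads ranged from 12003 to 278890 in sperm and from 2951 to 8967 in 2PN embryos and oocyte, which was 2.11% to 10.1% and 0.196% to 0.737% of the authors' total. CPM and RPM can therefore order libraries differently, and both are given. Of the sperm libraries, Drosha cKO replicates 2 and 3 were shallow, with 12003 and 15921 listed reads, so that 3 reads there stood for 249.9 and 188.4 CPM. WT replicate 2 had the highest listed share of the authors' total, 10.1%, against 2.16% in WT replicate 1. Replicates of a group differed beyond counting error in each sperm group.

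miR-296-5p was the abundant product of the pair, and it was scarce in cKO sperm. It had 2 and 3 reads in the Dicer cKO libraries, 16, 1 and 2 reads in the Drosha cKO libraries, and 204 and 131 reads in the WT libraries. These are 16.3 and 27.7 CPM in Dicer cKO sperm, 158.5, 83.3 and 125.6 CPM in Drosha cKO sperm, and 2780 and 469.7 CPM in WT sperm. All 5 cKO libraries lay below both WT libraries, and both Dicer cKO libraries lay below all 3 Drosha cKO libraries. The first of these orders held for 28.7% of the 335 tested features in CPM, and the second for 23.9%. The second also rests on few reads, since 1 read in Drosha cKO replicate 2 is already 83.3 CPM (counting interval 2.11 to 464 CPM).

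In RPM the same libraries read 0.720 and 1.95 for Dicer cKO, 4.27, 2.42 and 2.65 for Drosha cKO, and 59.9 and 47.2 for WT. The groups again did not overlap, an order between cKO and WT that 23.0% of tested features shared in RPM. The order between Dicer cKO and Drosha cKO was shared by 5.67%. The WT libraries spread widely in CPM, with a mean of 1625 ± 1634 CPM (SD, n = 2), and less in RPM. Mean levels were 1.33 ± 0.87 RPM in Dicer cKO sperm (SD, n = 2), 3.12 ± 1.01 RPM in Drosha cKO sperm (SD, n = 3) and 53.6 ± 8.99 RPM in WT sperm (SD, n = 2). In WT sperm miR-296-5p stood at place 50 of 1377 features with a read in replicate 1 and at place 137 of 1108 in replicate 2. In Dicer cKO sperm it stood at place 473 of 871 and 412 of 852, and in Drosha cKO sperm at place 226 of 1108, 276 of 419 and 270 of 562.

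**Figure D2:**
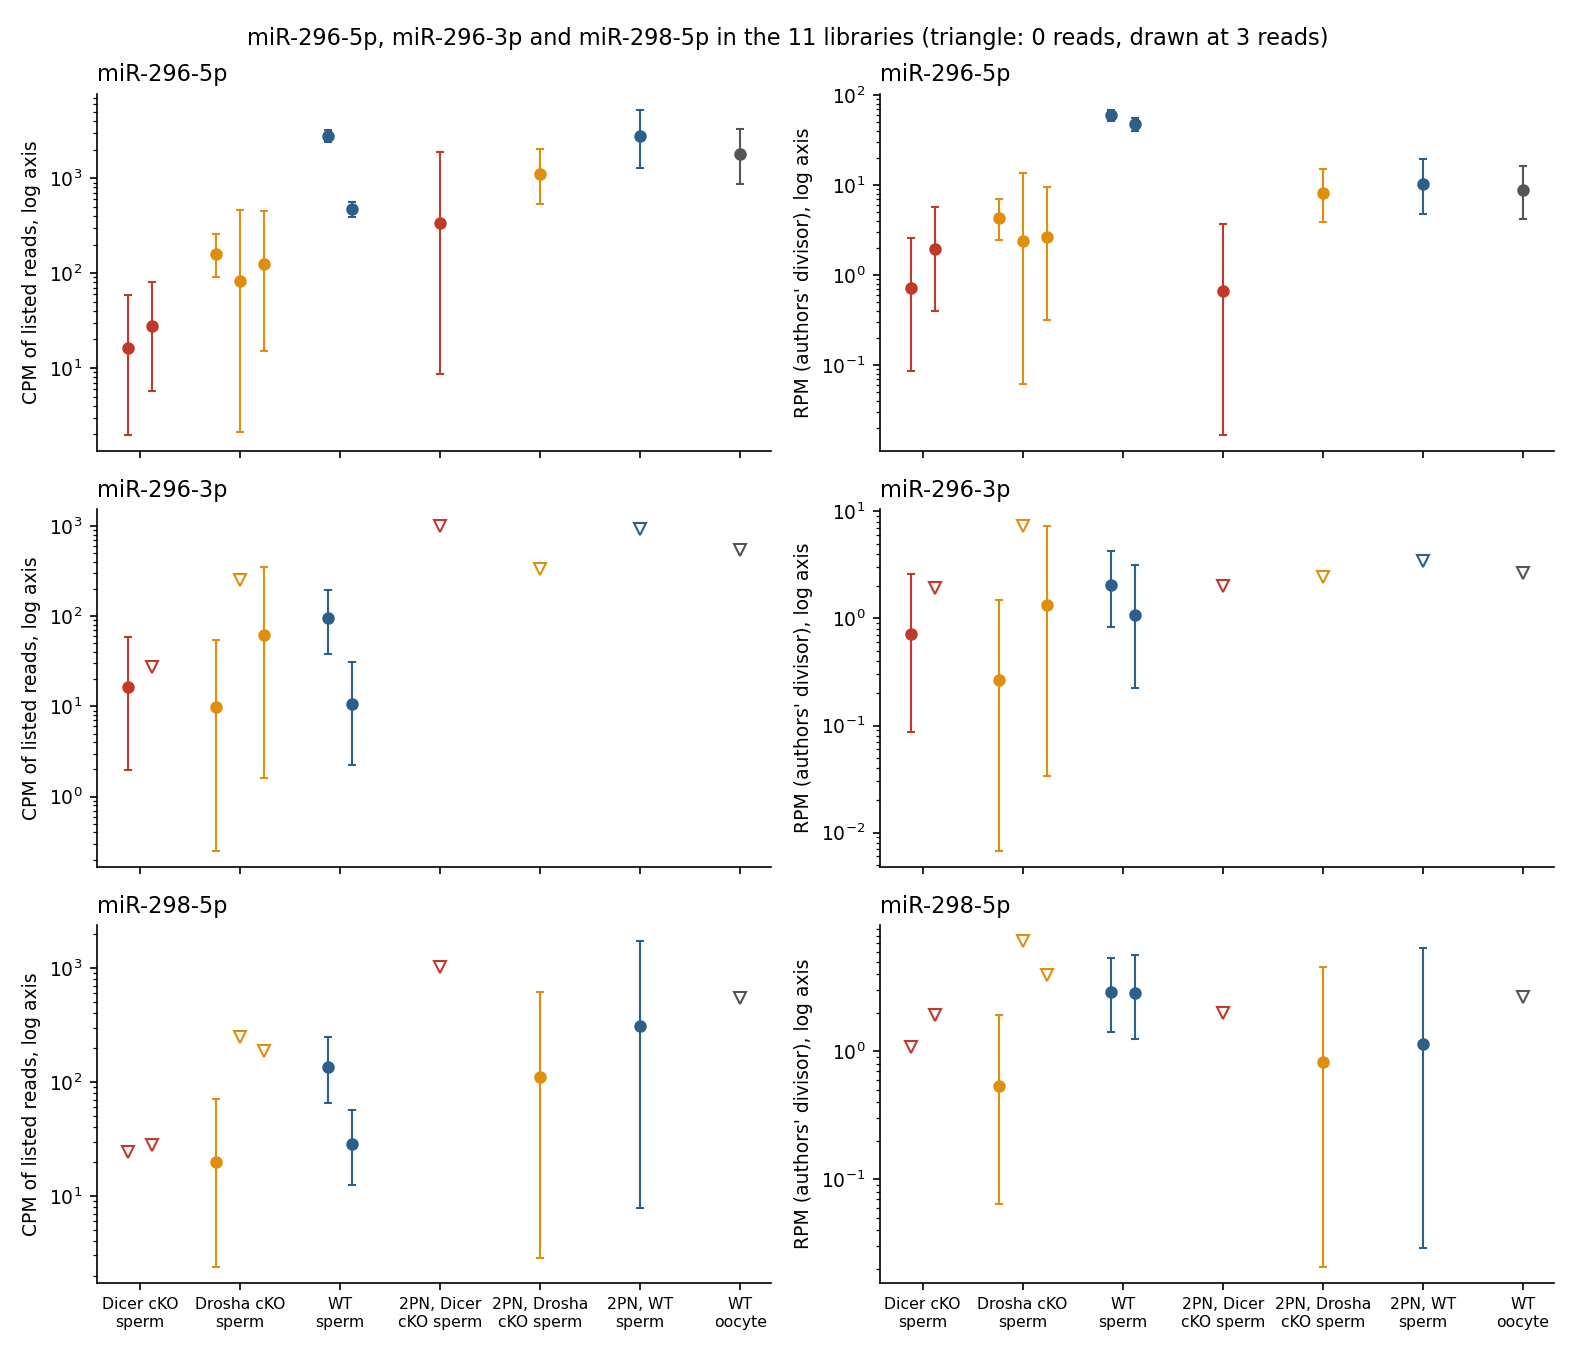
Levels of the 3 miRNAs in each of the 11 libraries, with CPM on the left and RPM on the right, both on log axes. Each point is 1 library with its exact 95% Poisson interval (counting error only), and open triangles mark libraries with 0 reads, drawn at 3 reads. miR-296-5p lies at 16.3 and 27.7 CPM in the Dicer cKO sperm libraries, between 83.3 and 158.5 CPM in the 3 Drosha cKO libraries and at 2780 and 469.7 CPM in the WT libraries.

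From the summed reads, miR-296-5p was 44.0-fold lower in Dicer cKO than in WT sperm in CPM (95% exact interval 18.7 to 136) and 46.9-fold lower in RPM (19.9 to 145). In Drosha cKO sperm it was 6.45-fold lower than in WT in CPM (4.07 to 10.8) and 14.0-fold lower in RPM (8.83 to 23.6). These intervals cover counting error only. With TMM factors and edgeR the fitted log2 changes were −6.51 (SE 0.92) for Dicer cKO and −4.19 (SE 0.72) for Drosha cKO over WT sperm. The median change of all 335 tested features was 0.03 in the first comparison and 0.05 in the second.

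By order of log2 change, miR-296-5p was the second lowest of 335 features in Dicer cKO sperm. Only miR-293-3p, named here after its value was seen, was lower, at −7.72. In Drosha cKO sperm miR-296-5p was at place 32 from the lowest, between miR-34c-5p at −4.19 and miR-34b-5p at −4.18. These places depended on the WT library used. Without WT replicate 1 miR-296-5p was at place 24 of 405 in Dicer cKO and 99 of 405 in Drosha cKO sperm. Without WT replicate 2 it was at place 2 of 386 and 7 of 386. Of all tested features, edgeR called 31.0% lower and 16.1% higher (47.2% in all) in Dicer cKO sperm at an adjusted p of 0.05. In Drosha cKO sperm 33.1% were called lower and 22.1% higher (55.2% in all). miR-296-5p is among the lower features of both comparisons, from which it was chosen, so nothing is read from these shares.

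**Figure D3:**
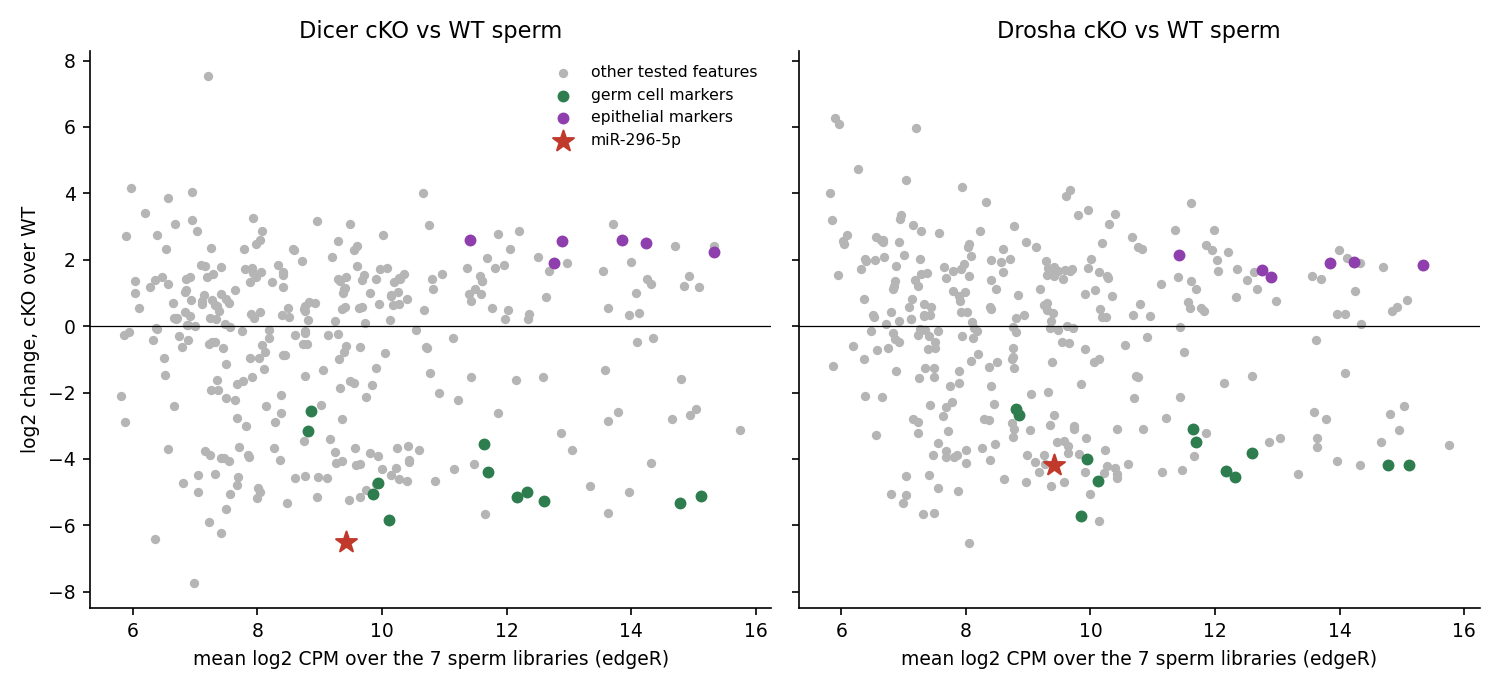
Log2 change (y axis) against mean log2 CPM over the 7 sperm libraries (x axis) for the 335 features tested by edgeR, for Dicer cKO against WT sperm on the left and Drosha cKO against WT sperm on the right. miR-296-5p (star) lies at −6.51 and −4.19, among or below the germ cell markers (green), and the epithelial markers (purple) lie above 0 in both panels.

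The size of the fitted change depended on which WT library was used. Without WT replicate 2 the log2 change was −7.65 for Dicer cKO and −5.31 for Drosha cKO, and without WT replicate 1 it was −5.45 and −3.44. With the authors' total as library size it was −5.36 for Dicer cKO. The WT libraries differed 5.92-fold in the CPM of miR-296-5p, with replicate 1 higher, while the median ratio over 316 tested features was 1.15. Of those 316 features, 4.43% had a ratio at least as high. In RPM the WT libraries differed 1.27-fold in miR-296-5p, with replicate 1 again higher.

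The members were not chosen on the comparison of Dicer cKO with Drosha cKO sperm itself, so its test is given. The cKO libraries compared did enter that choice, however, and the test is not independent of it. Summed reads were 6.82-fold lower in Dicer cKO than in Drosha cKO sperm in CPM (2.46 to 23.4) and 3.34-fold lower in RPM (1.21 to 11.5). The edgeR log2 change was −2.32 (SE 0.89) with an adjusted p of 0.192, lower in 2 of 2 Dicer cKO libraries than in each Drosha cKO library. The difference thus did not pass the threshold. Between these groups edgeR called 0.0% of the 335 features, with 65 at an unadjusted p under 0.05, while DESeq2 called 18 and limma voom 1. Groups without overlap in this direction were seen for 23.9% of tested features in CPM and 5.67% in RPM.

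miR-296-3p, the other arm of the hairpin, was near the limit of detection in every library. It had 2 and 0 reads in Dicer cKO sperm, 1, 0 and 1 in Drosha cKO sperm, and 7 and 3 in WT sperm. In RPM these are 0.720 and 0 in Dicer cKO sperm, 0.267, 0 and 1.33 in Drosha cKO sperm, and 2.06 and 1.08 in WT sperm. The groups overlap: Drosha cKO replicate 3 lies above WT replicate 2 in RPM and in CPM. The summed reads were 3.28-fold lower in Dicer cKO than in WT sperm in CPM (0.699 to 30.8) and 1.83-fold lower in Drosha cKO than in WT sperm (0.390 to 17.2), both intervals spanning no change.

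The 5p arm held nearly all reads of the Mir296 hairpin in WT sperm. It took 204 of 211 reads in WT replicate 1 (96.7%, 95% Clopper-Pearson interval 93.3 to 98.7) and 131 of 134 in WT replicate 2 (97.8%, 93.6 to 99.5). In cKO sperm it took 24 of 28 reads (85.7%, 67.3 to 96.0), against 335 of 345 in WT sperm (97.1%, 94.7 to 98.6). The 4 reads of the 3p arm in cKO sperm came from Dicer cKO replicate 1 (2 reads) and Drosha cKO replicates 1 and 3 (1 read each). The pooled intervals overlap, and a difference in arm use was not tested. In 2PN embryos and oocyte all 30 reads were of the 5p arm, which allows a 5p share down to 88.4%.

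miR-298-5p, from the second hairpin, was about as scarce and was seen mainly in WT sperm. It had 0 and 0 reads in Dicer cKO sperm, 2, 0 and 0 in Drosha cKO sperm, and 10 and 8 in WT sperm. In RPM the WT libraries lay close together at 2.94 and 2.88, and the single Drosha cKO library with reads was at 0.534. Zero reads allow up to 1.08 and 1.95 RPM in the Dicer cKO libraries (exact Poisson limits 1.327 and 2.392 RPM), all under the WT values. The WT counting intervals were 1.409 to 5.403 and 1.245 to 5.683 RPM, however, and the limit of Dicer cKO replicate 2 lies inside both. In Drosha cKO replicates 2 and 3, however, 0 reads allow up to 7.27 and 3.98 RPM, above both WT libraries, so these shallow libraries cannot place miR-298-5p below WT.

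Summed over libraries, and with the floor of 3 reads in place of 0, miR-298-5p was 3.94-fold lower in Dicer cKO than in WT sperm in CPM and 4.20-fold lower in RPM. For miR-298-5p these values leave out the counting error of the 18 WT reads. In Drosha cKO sperm it was 3.29-fold lower than in WT in CPM (0.788 to 29.3) and 7.15-fold lower in RPM (1.71 to 63.6). Only 1 of the 3 miRNAs, miR-296-5p, passed the filter on low counts, and a miRNA that is high in WT alone passes through that group. Without the filter the edgeR log2 change of miR-298-5p for Drosha cKO over WT sperm was −3.05, and none is given for Dicer cKO sperm, where both libraries are at 0 and a fitted value would be set by the prior count. Those of miR-296-3p were −2.14 for Dicer cKO and −2.11 for Drosha cKO over WT sperm, and −0.02 between Dicer cKO and Drosha cKO sperm with an adjusted p of 1. Such fitted values rest on a handful of reads, and in these unfiltered fits the median of all 2186 features was itself −1.23 for Dicer cKO and −0.84 for Drosha cKO over WT sperm.

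The sperm groups also differed in RNAs that mark cell types, and these values stand beside every cKO to WT comparison above. Germ cell markers, such as miR-34b-5p, miR-34c-5p and miR-449a-5p of the testis-rich miR-34 and miR-449 family and miR-743a-3p of the X-linked testis cluster, were lower in cKO sperm. In the edgeR fits 12 of 12 were called lower in Dicer cKO sperm (median log2 change −5.02) and 12 of 12 in Drosha cKO sperm (median −4.08). Of all tested features 31.0% and 33.1% were called lower. The marker lists were drawn up with earlier results of these data known, so their counts are a description. Of the listed reads they took 0.876% to 0.905% in the Dicer cKO libraries, 1.46% to 2.57% in the Drosha cKO libraries and 16.9% to 18.9% in the WT libraries, and 1 marker (miR-465a-5p) was at 0 in a sperm library, Drosha cKO replicate 2. In Dicer cKO sperm the log2 change of miR-296-5p was −6.51 (SE 0.92), and the lowest of these markers was miR-184-3p at −5.83 (SE 0.74). Because miR-296-5p was chosen for this fall, and was at −5.45 without WT replicate 1, nothing is read from that order. All 12 germ cell markers stayed called lower in both comparisons with library totals, DESeq2 size factors or either WT library left out, and 10 of 12 were in Dicer cKO sperm with the authors' divisor or without a filter, settings applied to these lists after seeing the data.

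Epithelial markers moved the other way. All 6 of 6, among them miR-200a-3p, miR-200b-3p, miR-200c-3p and miR-141-3p, were called higher in both cKO groups, with a median log2 change of 2.53 in Dicer cKO and 1.87 in Drosha cKO sperm. Of all tested features 16.1% were called higher in Dicer cKO and 22.1% in Drosha cKO sperm. In Drosha cKO sperm, however, 0 of 6 were called with the authors' divisor (median 1.56), 0 without a filter (1.58), 1 without WT replicate 1 (0.96) and 1 without Drosha cKO replicates 2 and 3 (1.41). Dropping Dicer cKO replicate 1 from the fit gave 2 calls (1.31), and dropping replicate 2 gave 3 (1.34). They made up 13.6% to 16.3% of listed reads in the Dicer cKO libraries, 11.4% to 14.3% in the Drosha cKO libraries and 1.65% to 1.83% in the WT libraries, and none was at 0 in any sperm library. Of 7 blood cell markers, 4 were called higher in Dicer cKO sperm, and 4 higher and 1 lower in Drosha cKO sperm. In Drosha cKO sperm the number called higher was 1 with the authors' divisor, 0 without a filter, 0 without WT replicate 1, 2 without WT replicate 2 and 2 without Drosha cKO replicates 2 and 3, and also 2 when a single Dicer cKO library was dropped. They summed to 5.02% to 5.05% of listed reads for Dicer cKO, 2.16% to 2.47% for Drosha cKO and 0.513% to 0.525% for WT, and 1 of them (miR-155-5p) was at 0 in Drosha cKO replicate 3. Of 5 stromal markers 2 were called higher in Dicer cKO sperm and 0 in Drosha cKO sperm, and none was at 0 in a sperm library. The calls for Dicer cKO sperm were 4 with library totals, 1 with the authors' divisor, 1 without WT replicate 1, 0 without WT replicate 2 and 0 without Drosha cKO replicates 2 and 3. The stromal median in Drosha cKO sperm was 0.65, but −0.35 without WT replicate 2. They summed to 1.87% to 2.61% of listed reads for Dicer cKO, 1.08% to 1.69% for Drosha cKO and 0.315% to 0.795% for WT. In such bulk samples fewer cells of a type and less RNA per cell cannot be told apart, and the part that these cells play in the levels of miR-296 and miR-298 was not tested.

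The 5 tested features with the highest Pearson correlation of log2(CPM + 10) over the 7 sperm libraries were miR-34b-3p (r = 0.953), miR-34c-5p (0.95), miR-103-3p (0.944), miR-880-3p (0.943) and miR-741-3p (0.943). Over all 334 other tested features the median r was −0.22, and 13 exceeded 0.9. These r describe 7 libraries in 3 groups, which share depth and group, and the difference between cKO and WT alone gives high values to features that fell. The choice of pseudocount changed the set, which shared 4 of its 5 names at a pseudocount of 1 CPM and 1 (miR-103-3p) at 100 CPM. Of the 5 at 10 CPM, 4 are of the miR-34 family or the X-linked testis cluster, but at 100 CPM only 2 are (miR-743a-3p and miR-881-3p), beside miR-103-3p, miR-425-5p and miR-294-3p.

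Of these 5, miR-34b-3p, from the multiciliated-cell and spermatid family of miR-34, had 1041 and 582.6 CPM in Dicer cKO sperm, 4458, 2666 and 4145 CPM in Drosha cKO sperm, and 31430 and 20420 CPM in WT sperm. Like miR-296-5p it was lowest in Dicer cKO sperm, intermediate in Drosha cKO sperm and highest in WT replicate 1. miR-103-3p, which most tissues express, had 4106 and 4013 CPM in Dicer cKO sperm, 5717, 3916 and 5213 CPM in Drosha cKO sperm, and 9567 and 5873 CPM in WT sperm, the narrowest range of the 5. Its log2 change was −1.54 in Dicer cKO and −1.50 in Drosha cKO sperm, so likeness in pattern went with a much smaller change.

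**Figure D4:**
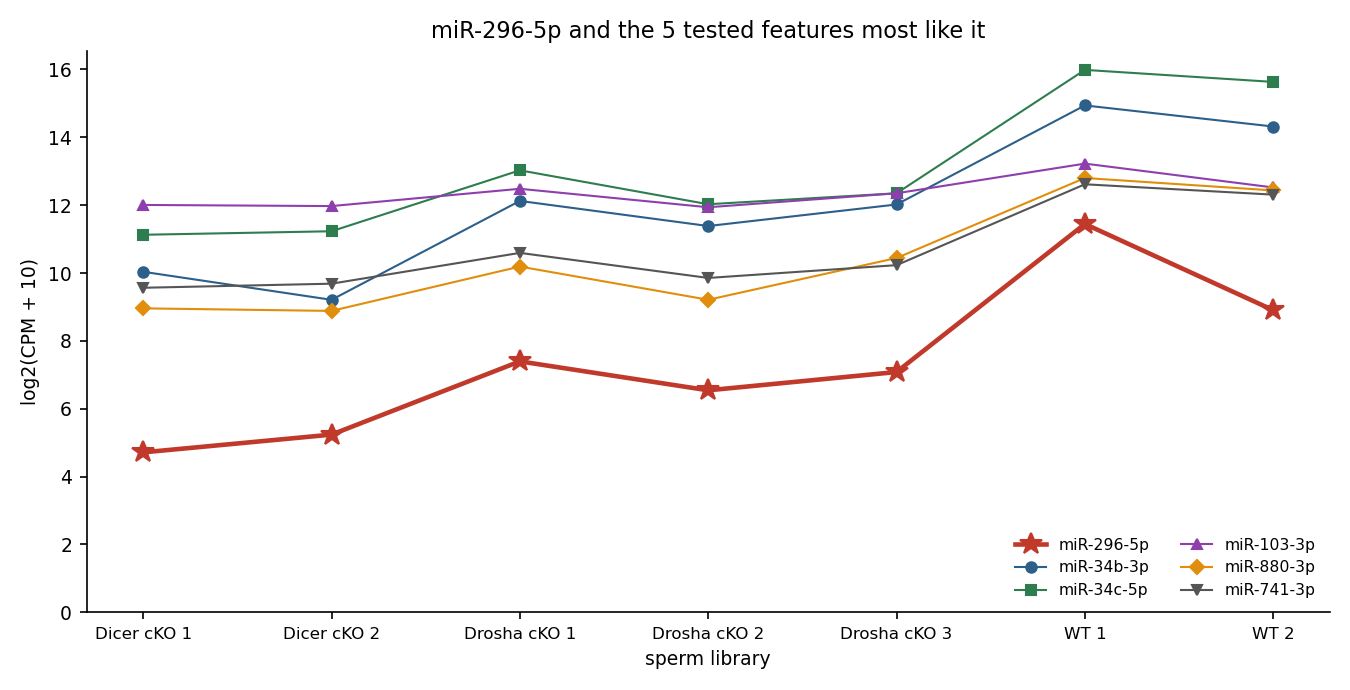
Log2(CPM + 10) of miR-296-5p (stars) and of the 5 tested features most correlated with it, in the 7 sperm libraries on the x axis (lines only join points of 1 miRNA). All 6 are highest in WT replicate 1, and miR-103-3p spans the narrowest range.

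Other imprinted miRNA clusters give a comparison. The Sfmbt2 cluster is an intronic and paternally expressed cluster on the same chromosome. Its list took every entry named miR-297, miR-466, miR-467 or miR-669, and the position of each entry was not checked. Of 30 tested miRNAs of these names, 29 were called lower in Dicer cKO sperm (median log2 change −4.55) and 28 in Drosha cKO sperm (median −3.86). Of all tested features 31.0% and 33.1% were called lower. Without WT replicate 2, 22 and 19 of 30 fell. Among these, the abundant miR-669a-3p had 935.0 and 1461 CPM in Dicer cKO sperm, 1843, 2416 and 1193 CPM in Drosha cKO sperm, and 10020 and 26000 CPM in WT sperm. Unlike miR-296-5p, it was higher in WT replicate 2 than in WT replicate 1. Several miRNAs of that cluster have near-identical sequences, so their reads may be split or shared, and they are not independent.

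The Dlk1-Dio3 cluster is expressed from the maternal allele, and a chosen list of its miRNAs, not the whole cluster, was used. Of 36 listed miRNAs on it, only miR-136-5p, miR-369-3p and miR-434-3p were tested. By edgeR 0 of these 3 were called in either cKO group, against 47.2% (Dicer cKO) and 55.2% (Drosha cKO) of all tested features. Between Dicer cKO and Drosha cKO sperm 0 were called at the same threshold, as were 0.0% of all tested features. The log2 changes of these 3 ran from −0.95 to −0.34 in Dicer cKO sperm and from −1.35 to 1.26 in Drosha cKO sperm. Also of that cluster, miR-380-3p was tested but is not on the list. Its log2 change was 0.003 in Dicer cKO and 2.14 in Drosha cKO sperm (edgeR adjusted p = 0.0612 for the latter), and it was not called. Of the small imprinted loci (Mest, Igf2 and H19) only miR-335-5p of Mest was tested, and it was not called, at 0.46 in Dicer cKO sperm (adjusted p = 0.565 by edgeR) and −0.93 in Drosha cKO sperm (adjusted p = 0.221). No difference between these loci and the miR-296 pair was tested.

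Of the miRNAs described with miR-296 as acting on Nanog, Pou5f1 or Sox2, miR-470-5p fell in both cKO groups. It had 138.2 and 101.7 CPM in Dicer cKO sperm, 336.9, 166.6 and 62.8 CPM in Drosha cKO sperm, and 845.0 and 552.2 CPM in WT sperm, with log2 changes of −3.15 and −2.50 (edgeR adjusted p = 0.00283 and 0.00618). For Dicer cKO sperm this call was lost with the authors' divisor (log2 change −2.47, edgeR adjusted p = 0.0605) and without a filter (−2.54, 0.118), and over the other settings its adjusted p ran from 4.78e-05 to 0.0449 (edgeR, DESeq2 or limma). It belongs to the X-linked testis cluster and is also counted among the germ cell markers. miR-134-5p was too scarce to be tested.

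Few other miRNAs of like base composition fell. Of 26 other tested miRNAs with at least 65% G and C, 2 fell and 2 rose in Dicer cKO sperm (median log2 change 0.36), and 1 fell and 12 rose in Drosha cKO sperm (median 1.90). Among the 335 tested features 31.0% were called lower and 16.1% higher in Dicer cKO sperm, and 33.1% lower and 22.1% higher in Drosha cKO sperm. Both medians stayed above 0 under each scaling, while the number that rose was 6 in Dicer cKO and 21 in Drosha cKO sperm with library totals, and 3 and 7 with the authors' divisor. Over all tested features, 101 and 134 of 335 rose with library totals, and 47 and 21 of 339 with the authors' divisor. Leaving out a WT library gave 3 and 7 that rose without replicate 1, and 0 and 7 without replicate 2, and leaving out a Dicer cKO library gave 1 and 7 without replicate 1 and 0 and 7 without replicate 2. Examples are miR-3473b, with 6131 and 5067 CPM in Dicer cKO sperm, 16600, 7581 and 9547 CPM in Drosha cKO sperm and 2153 and 1689 CPM in WT sperm, and miR-6240, with log2 changes of 1.76 in Dicer cKO and 2.88 in Drosha cKO sperm. In WT sperm, 25 of these miRNAs had a median ratio of replicate 1 to replicate 2 of 1.57 in CPM, against 1.14 in 221 others with a sequence and 5.92 for miR-296-5p.

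In the egg and the early embryo miR-296-5p was read in each library. It had 1 read in 2PN embryos from Dicer cKO sperm, 10 in those from Drosha cKO sperm, 9 in those from WT sperm and 10 in oocytes. Its level was 0.665 RPM (338.9 CPM) in 2PN embryos from Dicer cKO sperm, 8.22 RPM (1115 CPM) in those from Drosha cKO sperm, 10.4 RPM (2775 CPM) in those from WT sperm and 8.84 RPM (1808 CPM) in oocytes. There is 1 library of each kind, so these values have no replicate check and no test is given. The library from Dicer cKO sperm is the low one, and its counting interval of 0.0168 to 3.71 RPM lies below those of the other 3, but that of 8.58 to 1888 CPM overlaps them, while the other 3 libraries have overlapping counting intervals in both units.

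miR-296-5p was 8.19-fold lower in 2PN embryos from Dicer cKO sperm than in those from WT sperm in CPM (exact counting interval 1.13 to 359) and 15.6-fold lower in RPM (2.16 to 684). A level at least 4-fold lower was seen for 31.8% of the 44 features with at least 10 reads in the pair in CPM, and for 43.2% in RPM, miR-296-5p included. The position of miR-296-5p is therefore shared by many RNAs of that library, which had the fewest listed reads, 2951. Against 2PN embryos from Drosha cKO sperm the level in those from Dicer cKO sperm was 3.29-fold lower in CPM (0.468 to 143) and 12.4-fold lower in RPM (1.76 to 536). Of 54 features with at least 10 reads in that pair, 9.26% were at least 4-fold lower in CPM and 64.8% in RPM.

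**Figure D5:**
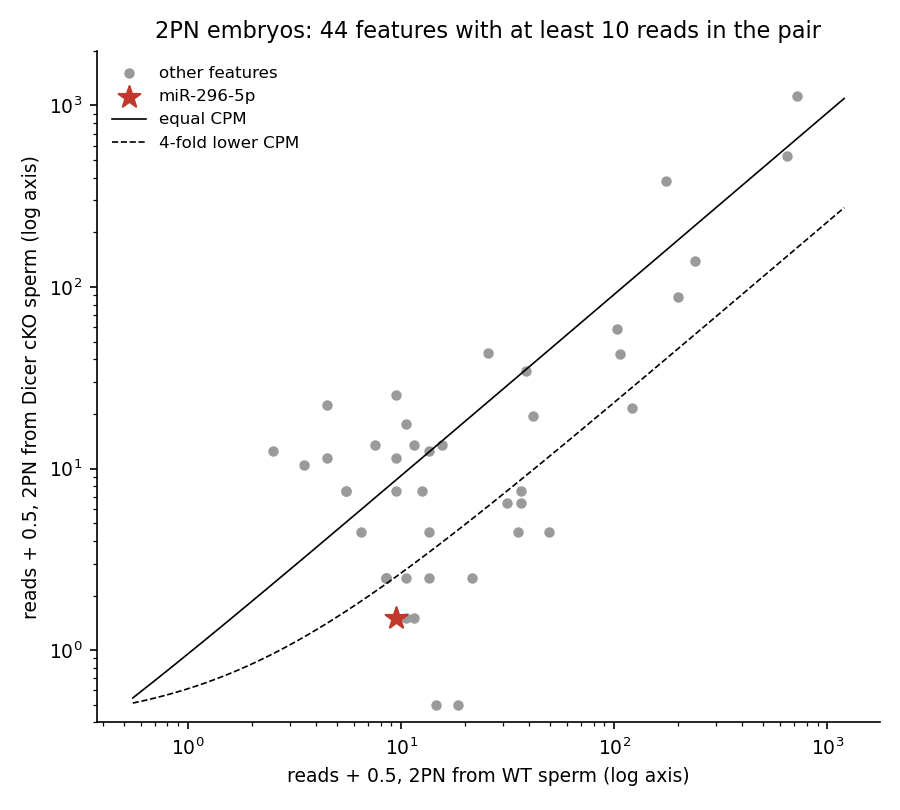
Reads plus 0.5 in 2PN embryos from Dicer cKO sperm (y axis, log) against those from WT sperm (x axis, log) for the 44 features with at least 10 reads in the pair. The solid curve marks equal CPM and the dashed curve a 4-fold lower CPM, and miR-296-5p (star, 1 against 9 reads) lies below the dashed curve with 31.8% of the features on or below it.

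The difference between embryos from Drosha cKO and WT sperm was within counting error. miR-296-5p was 2.49-fold lower in CPM (0.895 to 6.81) and 1.26-fold lower in RPM (0.454 to 3.46), with both intervals spanning no change. Of 64 features with at least 10 reads in that pair, 18.8% were at least 4-fold lower in CPM and 3.12% in RPM, and miR-296-5p was not among them. The 2PN embryos from WT sperm were 1.53-fold higher than oocytes in CPM (0.552 to 4.20) and 1.17-fold higher in RPM (0.422 to 3.21), again within counting error. The 12 listed germ cell markers took few reads in these libraries, 0.0339% of listed reads in 2PN from Dicer cKO sperm, 0.0558% in 2PN from Drosha cKO sperm, 0.154% in 2PN from WT sperm and 0.199% in oocyte. That list does not hold miR-34b-3p, which had 11 reads in 2PN from Dicer cKO sperm, 9 in 2PN from Drosha cKO sperm, 9 in 2PN from WT sperm and 11 in oocyte. Unlike miR-296-5p, this miRNA was not low in 2PN from Dicer cKO sperm, with 3728 CPM against 2775 CPM in 2PN from WT sperm (7.32 against 10.4 RPM).

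How embryos compare with sperm depends on the unit. Per listed read, miR-296-5p was 2.92-fold higher in 2PN embryos from WT sperm than in WT sperm (1.32 to 5.61), whereas in RPM it was 5.22-fold lower (2.72 to 11.5). Likewise WT sperm was 1.90-fold lower than oocyte in CPM (0.904 to 3.54) and 6.13-fold higher in RPM (3.29 to 12.9). In RPM the order of levels, from high to low, was WT sperm, 2PN from WT sperm, oocyte, 2PN from Drosha cKO sperm, Drosha cKO sperm, Dicer cKO sperm and 2PN from Dicer cKO sperm. Of the neighbours in that order, only WT sperm and 2PN from WT sperm had counting intervals that do not overlap, at 39.5 to 68.7 RPM over both WT sperm libraries against 4.75 to 19.7 RPM. In CPM, WT sperm replicates 1 and 2, at 2780 and 469.7 CPM, lay on either side of the oocyte value of 1808 CPM.

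The other members were hardly seen outside sperm. miR-296-3p had 0 reads in all 4 libraries of oocyte and 2PN embryos, which allows up to 2.00 RPM in 2PN from Dicer cKO sperm, 2.47 RPM in 2PN from Drosha cKO sperm, 3.46 RPM in 2PN from WT sperm and 2.65 RPM in oocyte. The 2.06 RPM of WT sperm replicate 1 lies above the first of these limits and below the other 3, and the 1.08 RPM of replicate 2 lies below all 4. These limits are the floor of 3 reads. The exact Poisson limit for 0 reads in 2PN from Dicer cKO sperm, 2.45 RPM, lies above both WT sperm values. Over the 4 libraries together 0 reads allow up to 0.636 RPM, below both WT sperm values. The counting intervals of those values were 0.827 to 4.24 RPM in replicate 1 and 0.223 to 3.16 RPM in replicate 2, and the latter spans 0.636 RPM. miR-298-5p had 1 read each in 2PN embryos from Drosha cKO and WT sperm and 0 in those from Dicer cKO sperm and in oocyte.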

How the data were processed

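Small RNA counts and RPM values for 11 libraries were used as deposited by the authors. The count table lists 1592 mature miRNAs and 712 endo-siRNAs. In the RPM table the authors divided each count by 1 whole number per library (recovered to within 0.0054 of a whole number), from 412523 in Drosha cKO sperm replicate 2 to 3743577 in replicate 1. What that number counts, the aligner's settings, the counting of multiply mapped reads and the miRNA release were not given in the sources used here. The submitters' processing notes name Bowtie and mm10, without versions. The series description names an Ion Torrent Proton platform and duplicates, whereas the labels name Illumina protocols and the group sizes used here, which were followed.

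CPM divides by listed reads. All 7 sperm libraries were fitted in edgeR 4.0.16 (R 4.3.3), normalised by TMM and filtered with filterByExpr (335 features, 321 miRNAs and 14 endo-siRNAs), the two-sided quasi-likelihood test and Benjamini-Hochberg adjustment at 0.05. The script was tested on simulated counts. Biological coefficient of variation was 0.459. The SE of a log2 change is its size divided by the square root of the F statistic. Poisson, ratio and Clopper-Pearson intervals are exact at 95% and, like the floor of 3 reads, cover counting error only.

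Named features were the 3 members, listed miRNAs with their seed, the nearest listed hairpins, the 5 features most correlated with a tested member and up to 4 abundant members of each list. Members and lists were chosen with earlier results of these data known. Alternatives were DESeq2 1.42.0 and its size factors, limma voom 3.58.1, library totals, the authors' divisor, other filters, miRNAs only, 2 groups only, libraries left out, a replicate block and, for levels, RPM. Sequences and positions came from RefSeq tables on GRCm38, and the supplied genome, of an older build, was not used.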

Additional observations from a re-analysis of the deposited data

How the results depend on the processing

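The log2 change of miR-296-5p stayed negative in all 3 sperm comparisons under each alternative run. For Dicer cKO against WT sperm it was −5.36 with the authors' divisor, and leaving out 1 library gave −7.65 to −5.45. For Drosha cKO against WT sperm it was −3.57 with library totals, and leaving out 1 library gave −5.31 to −3.44. For Dicer cKO against Drosha cKO sperm it was −1.39 with the authors' divisor and −1.62 without a filter, leaving out 1 library gave −2.50 to −1.79, and the edgeR, DESeq2 or limma adjusted p ranged from 0.0593 without WT replicate 2 to 1 without a filter. Counts of called features were 114 with the authors' divisor and 112 without a filter for Drosha cKO against WT sperm (main count 185, and 153 to 185 with 1 library left out), and 112 to 174 with 1 library left out for Dicer cKO (main count 158). Between Dicer cKO and Drosha cKO sperm the count was 0, but 11 with library totals, 1 with the authors' divisor, 1 without a filter, 18 with DESeq2, 1 with limma voom, 31 with only the 2 groups, and 0 to 36 with 1 library left out, 36 without WT replicate 1 and 35 without WT replicate 2. The cause was not tested. Calls were lower in 65.8% (Dicer cKO) and 60% (Drosha cKO) of cases, in 47.4% and 39.9% with library totals and in 59.8% and 81.6% with the authors' divisor, settings that moved the median of all features to 0.60 and 1.04, and to 0.88 and −0.03. In RPM in place of CPM the log2 ratio of summed reads of miR-296-5p was −3.81 for Drosha cKO over WT sperm (−2.69 in CPM), 2.62 for WT sperm over oocyte (−0.93 in CPM) and −2.39 for 2PN from WT sperm over WT sperm (1.55 in CPM), since the listed share of the authors' divisor differs between libraries. With a replicate block, a fit that pairs libraries by number, miR-296-5p was at −6.33, −4.25 and −2.09 (edgeR adjusted p = 0.254 for the last), with 175, 184 and 8 calls; same-numbered libraries deviated together with r from 0.129 to 0.294, but only 2 numbers are shared per comparison, so the numbers are not shown to pair the samples. miR-298-5p passed the filter only in fits without a Dicer cKO library or without Drosha cKO replicates 2 and 3, and miR-296-3p in none that kept a filter. Depth limits miR-296-3p and miR-298-5p in every library and all 3 miRNAs in oocyte and 2PN embryos.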
